A study of Homo sapiens with 4 samples.

Results

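VLDLR, PLIN2 and HMGCS1 handle lipids at 3 points: uptake from lipoproteins, storage in droplets and synthesis of cholesterol. They were chosen by the fold change of their counts between media, from the 78724 rows of a ribosome footprint count table: VLDLR and PLIN2 were higher and HMGCS1 lower in arginine-free medium. VLDLR and PLIN2 were found by their Ensembl identifiers and HMGCS1 by its place on chromosome 5. Because the contrast of the media chose them, its values for these genes are given as a description, with no p-value.

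The libraries hold ribosome-protected RNA fragments of A375, an established human cell line from a melanoma. Cells had 48 h in arginine-free medium (2 libraries) or in control medium (2 libraries). The arginine-free medium was an RPMI 1640 base to which every amino acid but arginine, with glucose and pyruvate, was added back. The labels describe routine growth in DMEM with fetal bovine serum and do not give the make-up of the control medium or the serum in the arginine-free one. The absence of arginine and any other difference between the media therefore cannot be told apart. No label calls the replicates separate cultures, so a p-value here speaks to the spread between libraries alone, and that spread may be technical.

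VLDLR is a receptor for very low density lipoprotein. It binds lipoproteins rich in triglyceride and brings their lipid to cells, binds reelin in the brain, and is a known target of the stress-induced transcription factor ATF4. PLIN2 coats lipid droplets in most cell types, shields them from lipases, and is a known target of PPAR transcription factors. HMGCS1 makes HMG-CoA in the cytosol, the substrate of HMG-CoA reductase, and is switched on by SREBP2 when membrane sterol is low.

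Total counts were 234766 and 192006 in arginine-free replicates 1 and 2, and 105004 and 217989 in control replicates 1 and 2. Levels below are CPM, counts scaled to the total of the tested rows with TMM factors. Many genes that dividing cells use were listed at 0, and 71.8% of named protein-coding rows held no read. The submitters' processing notes name GRCh37 for the reads, while the coordinates of the table match GRCh38. Rows are therefore read as genes only inside 5 nuclear stretches where neighbouring, broadly used genes held reads. Elsewhere a row is named only by its place. VLDLR opens the stretch on chromosome 9 and HMGCS1 closes the one on chromosome 5, so each helped to set its own stretch, and the rows around them were examined as well. Within 2 Mb on either side, 7 of 11 other protein-coding rows held reads at VLDLR, 9 of 11 at PLIN2 and 14 of 16 at HMGCS1. Rows with at least 20 reads numbered 7, 7 and 9.

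The cell type could be checked against few markers. Of 9 melanocytic genes, 8 had a row, and those of MITF, TYR, PMEL and SOX10 were at 0 but lie outside the stretches. Inside them, MLANA had 0 and 2 reads in arginine-free medium and 6 and 10 in control medium, TYRP1 had 1 and 0 against 16 and 25, and SLC45A2 had 0 and 0 against 0 and 2. The row of S100B, outside the stretches, held 2 reads in all. MLANA and TYRP1 thus had fewer reads in either arginine-free library than in either control library, and their part in the results below was not tested.

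The counts carry no base-level reads. Short runs of bases before the RefSeq starts are shown as context, from GRCh38.p14, printed 5′ to 3′ on the strand of the gene. The deposited rows of VLDLR and HMGCS1 begin further out than these starts, so their runs lie inside the rows. The run of PLIN2 lies outside its row. Distances from the start hold for the RefSeq start only. Capitals mark the letters searched on both strands: CACCNNAC, a widened form of the octamer in sterol-responsive promoters, ACGTG and GCGTG, the cores bound by hypoxia-inducible factors, CACGTG, the E-box, and TGATGNAA, a core of amino acid response elements. The search was chosen after the counts were known. CACGTG contains ACGTG on both strands, so these 2 overlap.
VLDLR, chr9:2621667-2621696, plus strand: gctgcccggcGCGTGcaagaggagcgcgtc
PLIN2, chr9:19127543-19127622, minus strand: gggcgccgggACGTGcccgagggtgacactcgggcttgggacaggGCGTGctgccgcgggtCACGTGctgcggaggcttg
HMGCS1, chr5:43313441-43313470, minus strand: gcggtgccggaGTCGGGTGggttggcggct

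In the window of 250 bases before to 50 after the start, VLDLR held GCGTG at 5 places, 1 of which is shown, 110 bases before the start. PLIN2 held ACGTG at 3 places, 1 of them 120 bases before the start and the other 2 inside the single CACGTG, 69 bases before it, and GCGTG at 2 places. HMGCS1 held CACCNNAC once, 47 bases before the start, and there it is written as its reverse complement. TGATGNAA was in none of these 3 windows. Over 35116 RefSeq promoter windows of the same length, 12.3% held CACCNNAC, 21.4% ACGTG, 36.5% GCGTG, 7.26% CACGTG and 3.62% TGATGNAA. A match describes letters, and footprint counts do not measure binding there.

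VLDLR, the uptake receptor, had the largest difference of the 3 genes. Its row (chromosome 9, 2621567 to 2660056, plus strand, 19 exon blocks) held 72 and 32 reads in arginine-free replicates 1 and 2, against 4 and 8 in control replicates 1 and 2. As CPM this was 312 and 201 in arginine-free medium and 37.7 and 41.0 in control medium. The arginine-free pair was the more spread. The means were 256 ± 78.4 CPM in arginine-free and 39.4 ± 2.36 CPM in control medium (SD, n = 2 each), with a fitted log2 fold change of 2.69 (SE 0.41), or 6.45-fold. The control level rests on few reads: the exact 95% Poisson intervals of its 4 and 8 reads run from 1.09 to 10.2 and from 3.45 to 15.8, and cover counting error only.

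PLIN2, the droplet coat, held most of the reads of the 3 genes. Its row (chromosome 9, 19115761 to 19127492, minus strand, 8 exon blocks) held 522 and 324 reads in arginine-free medium and 77 and 157 in control medium. That is 2261 and 2035 CPM in the arginine-free libraries and 726 and 805 CPM in the control libraries. Within each medium the 2 libraries lay close together. The means were 2148 ± 160 CPM in arginine-free and 765 ± 56.2 CPM in control medium (SD, n = 2 each). The log2 fold change was 1.48 (SE 0.22), or 2.80-fold.

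HMGCS1, the enzyme of cholesterol synthesis, went the other way. Its row (chromosome 5, 43287470 to 43313512, minus strand, 11 exon blocks) held 9 and 10 reads in arginine-free medium and 21 and 36 in control medium. As CPM this was 39.0 and 62.8 in the arginine-free libraries and 198 and 185 in the control libraries. The means were 50.9 ± 16.9 CPM in arginine-free and 191 ± 9.39 CPM in control medium (SD, n = 2 each). The fit put it 3.83-fold lower, at -1.94 on the log2 scale (SE 0.39). The 9 and 10 reads have exact 95% Poisson intervals of 4.12 to 17.1 and 4.80 to 18.4.

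**Figure D1:**
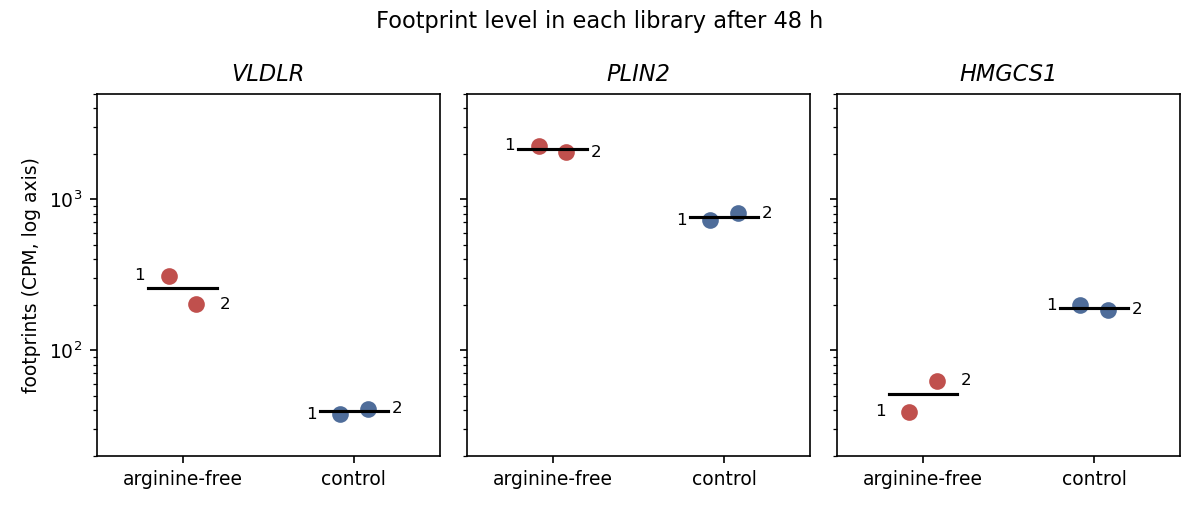
Footprint level (CPM, log axis) of VLDLR, PLIN2 and HMGCS1 in each library, with arginine-free left of control; points are libraries numbered by replicate and lines are group means. VLDLR and PLIN2 sit higher and HMGCS1 lower in arginine-free medium, as they were chosen, at 256 against 39.4, 2148 against 765 and 50.9 against 191 CPM.

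All 3 genes passed the filter on low counts, and by the edgeR threshold 2 were higher and 1 lower, in the directions that their choice set. Over all 2526 tested rows 16% were higher and 16.9% lower. With DESeq2, which called 6.07% of 2669 rows higher and 5.51% lower, the count was 2 higher and none lower, without HMGCS1. Nothing is read from either count. The CPM of the 2 media did not overlap for any of the 3 genes. Rows that did not pass, such as HAUS6 and PRKAA1, did not overlap either. The share of all tested rows without overlap was not counted, so nothing is read from it. In order of fold change over all tested rows, VLDLR was at place 49 and PLIN2 at place 212 from the top, and HMGCS1 at place 162 from the bottom. Footprints count shares of a library and no RNA library was used here, so less mRNA, fewer ribosomes per mRNA and more footprints on other genes cannot be told apart.

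Set per length, the order of the 3 genes differed between the media, and the direction of that difference follows from their choice. PLIN2 averaged 964 CPM per kb of exon in arginine-free and 344 in control medium, the highest of the 3 in every library. VLDLR had 33.1 and 21.3 CPM per kb in arginine-free medium and 4.00 and 4.35 in control medium. HMGCS1 had 7.15 and 11.5 CPM per kb in arginine-free medium and 36.3 and 33.9 in control medium. VLDLR was thus the second of the 3 in arginine-free libraries and the lowest in control libraries, with no overlap of its values with those of HMGCS1 in either medium. Among 175 tested protein-coding rows of the stretches, by level per kb, PLIN2 ranked 8 in arginine-free and 31 in control medium, VLDLR 119 and 173, and HMGCS1 160 and 109. Lengths are those of all exons of a row (9433 bases for VLDLR, 2227 for PLIN2 and 5450 for HMGCS1), untranslated parts included, where footprints are few, so levels between genes are approximate.

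Ratios of 2 genes inside a library need no scaling between libraries. PLIN2 had 58 and 32.4 reads per read of HMGCS1 in arginine-free medium, against 3.67 and 4.36 in control medium. VLDLR had 8 and 3.2 reads per read of HMGCS1 in arginine-free medium, against 0.19 and 0.222 in control medium. HMGCS1 therefore held more reads than VLDLR in both control libraries and fewer in both arginine-free ones. VLDLR and PLIN2 were chosen as higher and HMGCS1 as lower, so the direction of these ratios follows from the choice. The ratios reuse the same counts and add no support. The 2 higher genes also differed in size of change: PLIN2 had 7.25 and 10.1 reads per read of VLDLR in arginine-free medium, against 19.2 and 19.6 in control medium.

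**Figure D2:**
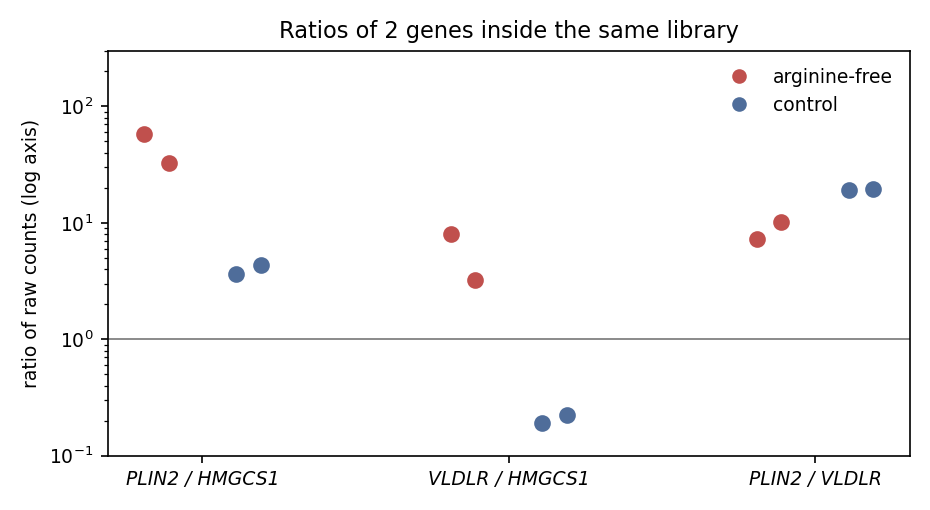
Ratio of raw counts of 2 genes in the same library (log axis), arginine-free left of control within each pair; each point is a library and the line marks equal counts. PLIN2 over HMGCS1 lies at 58 and 32.4 in arginine-free and at 3.67 and 4.36 in control libraries, and VLDLR over HMGCS1 crosses the line between the media. The direction of both follows from the choice of the genes.

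Reads of overlapping rows were few. Both rows on the opposite strand that share bases with VLDLR held 3 reads each, the one that overlaps HMGCS1 held 0, and PLIN2 overlaps no other row. Counting used no strand, so reads from opposite strands cannot be separated within a row. The median exon block was 126 bases for VLDLR, 189 for PLIN2 and 164 for HMGCS1. A shift between builds of that order would take reads out of a row while leaving part of them in it, and the share of each gene's reads that its row holds was not tested.

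Neighbouring rows were set beside the 16% higher and 16.9% lower of all 2526 tested rows. With 6 rows for each gene, nothing about the surroundings is read from the counts that passed. Some of these rows were shallow, with 35 reads in all at RFX3 and 44 at the place of DMRT2. Of the 6 tested protein-coding rows nearest VLDLR, none passed the threshold with edgeR or DESeq2, and at an unadjusted p under 0.05 edgeR had 1 higher and 1 lower. PUM3 and the row at SMARCA2 passed with a library left out, and the row at KANK1, at -0.49, passed only among rows with at least 50 counts, at -0.73 (edgeR adjusted p = 0.0239). The nearest on its far side was PUM3 (chromosome 9, 2804152 to 2844095), an RNA-binding protein of the nucleolus, for which 135 and 45 reads were counted in arginine-free and 46 and 113 in control medium (log2 fold change -0.22, edgeR adjusted p = 0.613). It was at -0.83 without arginine-free replicate 1 (edgeR adjusted p = 0.0231) and at 0.23 when replicate 2 of that medium was left out. On the near side, the row at the place of SMARCA2, a chromatin remodelling ATPase, stood at 0.62 (edgeR adjusted p = 0.0956), and at 0.90 without arginine-free replicate 2 (edgeR adjusted p = 0.0130). SLC1A1, a glutamate transporter, stood at 0.25, but at -0.69 when arginine-free replicate 1 was left out and at 0.77 when replicate 2 was. The transcription factor RFX3 stood at -0.63.

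Around PLIN2, 1 of 6 rows was higher, 1 lower and 4 did not pass, beside 16% higher and 16.9% lower of all tested rows. RRAGA (chromosome 9, 19049427 to 19051025), a Rag GTPase that reports amino acids to mTORC1, had 147 and 105 reads in arginine-free and 48 and 108 in control medium, which is 0.35 on the log2 scale (SE 0.22, edgeR adjusted p = 0.240). HAUS6, of the spindle complex augmin and next to PLIN2, stood at 0.21 (SE 0.28), and DENND4C, a Rab activator on its other side, at -0.31 (SE 0.28). The ribosomal protein gene RPS6 was higher (log2 fold change 1.08, edgeR adjusted p = 0.00381), which did not hold without control replicate 2 (edgeR adjusted p = 0.0549). The centriole protein gene CNTLN was lower at -1.31, just inside the threshold (edgeR adjusted p = 0.0493), and it did not pass without any 1 of the 4 libraries.

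Around HMGCS1, 2 of 6 rows were lower and 4 did not pass, beside 16.9% lower of all tested rows. The growth hormone receptor GHR (chromosome 5, 42423439 to 42721878) had 8 and 2 reads in arginine-free medium and 29 and 51 in control medium, and fell by 3.35 on the log2 scale (SE 0.42, edgeR adjusted p = 4.3e-05). Leaving out arginine-free replicate 1 put GHR at -4.27. The row at the place of NNT, a mitochondrial transhydrogenase that makes NADPH, had 74 and 51 reads in arginine-free medium and 94 and 191 in control medium, and fell by 1.54 (SE 0.22, edgeR adjusted p = 0.000123). The nearest tested rows on either side of HMGCS1, ZNF131 and the place of TMEM267, stood at 0.33 and 0.73 and did not pass (edgeR adjusted p = 0.587 and 0.279).

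**Figure D3:**
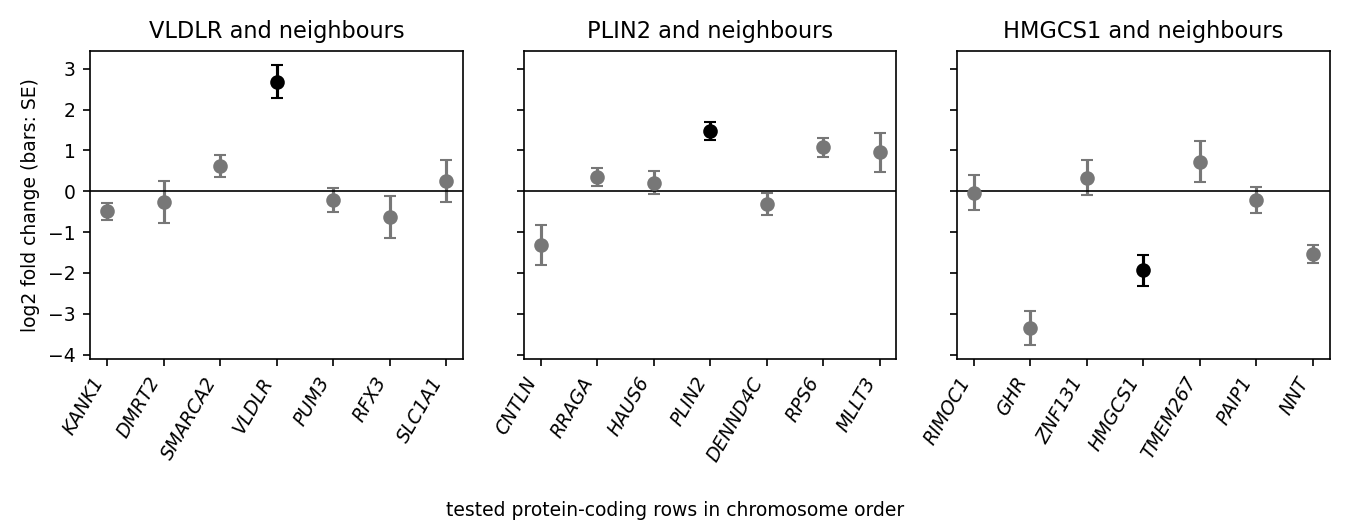
Log2 fold change (arginine-free over control, bars SE) of each gene, in black, and of the 3 nearest tested protein-coding rows on either side, in grey, in chromosome order. VLDLR at 2.69 stands above all 6 neighbours. At HMGCS1 the rows of GHR and NNT are also lower, while the nearest tested row on each side is above 0.

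Among the other lipid genes that could be read, 1 passed the test. Of 121 other genes in 6 lipid lists, 19 lie in the stretches and 8 could be tested there: 1 was higher, none lower and 7 did not pass, against 14.3% higher and 23.5% lower of the 196 tested rows in the stretches. The median log2 fold change was -0.15, beside -0.12 for those 196 rows. Its direction was not stable: leaving out arginine-free replicate 1 gave -0.44, and leaving out replicate 2 of that medium gave 0.21. The rows that enter can differ between settings. The DESeq2 median of 0.15 also takes in list rows too low for the filter, so it is not the median of these 8. At an unadjusted p under 0.05 the edgeR counts were the same, and DESeq2 called none of the 8. The higher one was SIRT6 (chromosome 19, 4174109 to 4182563), a deacylase of chromatin that restrains lipid synthesis genes in mouse liver, where 54 and 47 reads were counted in arginine-free medium and 12 and 18 in control medium. Its level was 265 ± 43.4 CPM in arginine-free and 103 ± 14.7 CPM in control medium (SD, n = 2 each), higher by 1.38 on the log2 scale (SE 0.33, edgeR adjusted p = 0.00619). It did not pass without control replicate 2 (edgeR adjusted p = 0.0665) or with DESeq2 (adjusted p = 0.0996).

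Of uptake, the list of lipoprotein receptors and adaptors had VLDLR and DAB2 in the stretches. DAB2, a clathrin adaptor that brings lipoprotein receptors into coated pits, had 113 and 42 reads in arginine-free medium and 55 and 88 in control medium. These overlapped as CPM, and the log2 fold change was -0.33 (SE 0.28, edgeR adjusted p = 0.400), becoming -0.81 without arginine-free replicate 1 (edgeR adjusted p = 0.0268) and 0.089 when replicate 2 of that medium was left out. The 8 genes tested also held those of membrane lipid and energy sensing. LPCAT1, which remakes phosphatidylcholine, averaged 54.3 ± 3.22 CPM in arginine-free and 95.8 ± 2.26 CPM in control medium (SD, n = 2 each) and did not pass (edgeR adjusted p = 0.161). PRKAA1, the catalytic subunit of the energy sensor AMPK, stood at -0.37 (SE 0.26) and the phosphoinositide kinase PIP5K1C at -0.12 (SE 0.56). Leaving out arginine-free replicate 1 put PIP5K1C at -1.19, and leaving out replicate 2 of that medium put it at 0.43. PLAA, which takes its name from activation of phospholipase A2, stood at 0.22 (SE 0.30), and at -0.11 when arginine-free replicate 1 was left out.

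Of fatty acid breakdown, OXCT1, which lets cells burn ketone bodies, was the tested gene in the stretches, at -0.01 (SE 0.38, edgeR adjusted p = 0.985), and at 0.70 without control replicate 2. AMACR, which prepares branched fatty acids for oxidation, was listed at 0. The cholesterol list had HMGCS1 alone in the stretches and the droplet list PLIN2 alone. Fatty acid synthesis had HACD4 there, whose 3 and 0 reads in arginine-free and 0 and 0 in control medium were below the filter. Other rows that were too low to test were those of PLPP6 (11 and 7 reads in arginine-free against 4 and 8 in control medium), ATP8B3 (1 and 2 against 5 and 7), SRD5A1 (5 and 6 against 2 and 7), TTC39B (2 and 7 against 2 and 2), ACER2 (2 and 1 against 0 and 0) and S1PR4 (1 and 0 against 0 and 0). AQP7, ENHO and CREB3L3 were listed at 0.

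**Figure D4:**
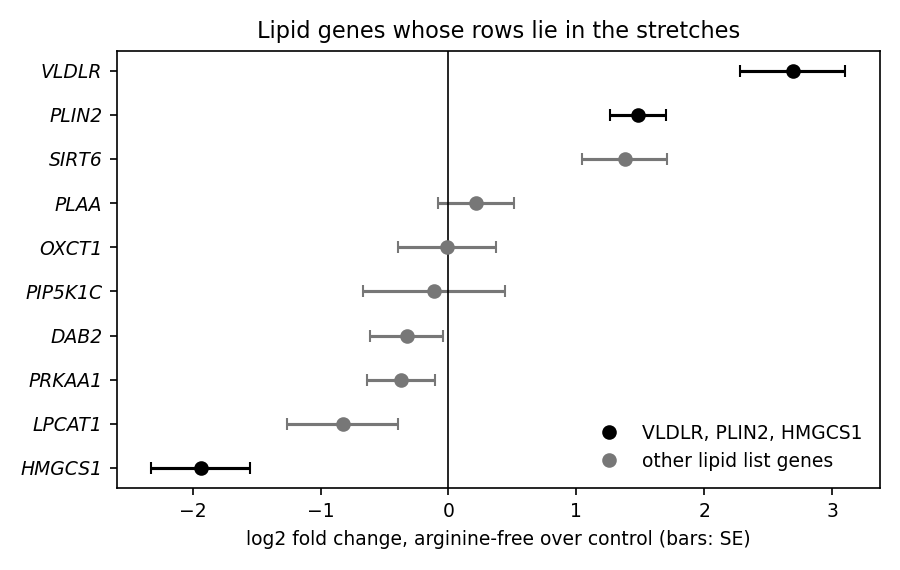
Log2 fold change (arginine-free over control, bars SE) of tested lipid list genes whose rows lie in the stretches, with VLDLR, PLIN2 and HMGCS1 in black. Apart from these, SIRT6 at 1.38 is the one past the threshold, and the other grey points lie between -0.83 and 0.22.

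Over the whole table the lists could hardly be followed, since 78 of their 120 rows were listed at 0. Without the 3 genes, 19 rows entered the test, and 4 came out higher and 1 lower, beside 16% higher and 16.9% lower of all 2526 tested rows. Nothing particular to the lists is read from these counts. By list and with the 3 genes included, cholesterol synthesis had 3 tested rows (2 higher, 1 lower), lipoprotein receptors 5 (1 higher), lipid droplets 5 (2 higher), fatty acid synthesis 1 (lower), and fatty acid oxidation 2 (none). The sixth list, of lipid genes in the stretches other than the 3, had 8 (1 higher), and its DAB2 and OXCT1 are also among the rows of the lists before it. Those outside the stretches were rows at the places of STARD4, PNPLA2 and TM7SF2, higher, and HACD3, lower, and are named after their values were seen. They had log2 fold changes of 1.40, 0.76, 1.24 and -1.53, and their reads need not come from these genes. Without control replicate 2, the counts over the table were 1 higher and none lower, and with DESeq2 none either way.

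Rows most like each gene were found by the root mean square difference in centred log2 CPM over the 4 libraries, among the tested protein-coding rows of the stretches. For VLDLR these were RPL37, of the large ribosomal subunit (0.28), ZNF622, a factor of large-subunit maturation (0.33), and PLIN2 (0.47). For PLIN2 they were OAZ1, the antizyme of polyamine synthesis (0.15), RPL37 (0.21) and MED10, of the Mediator complex (0.23). For HMGCS1 they were MFSD12, a cysteine carrier of melanosomes (0.13), BTBD2 (0.14) and the interleukin 11 receptor IL11RA (0.16), whose row held 1 and 3 reads in arginine-free and 8 and 13 in control medium. With 4 libraries in 2 media, likeness includes the difference that chose the genes, so it is given with no test.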

How the data were processed

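Footprint libraries were single reads made without removal of ribosomal RNA, per the labels' protocols. The authors deposited raw counts per gene row, made with featureCounts 2.0.1 on exons of GENCODE 47 (basic) with no strand option, per the file headers. Bowtie2 2.5.2, TopHat2 and cutadapt, with GRCh37 and hg19, stand in the submitters' processing notes. The deposited table also gives the summed exon length of a row. Counts of all rows were fitted with edgeR 4.0.16 in R 4.3.3 (TMM, filterByExpr by group, quasi-likelihood test, Benjamini-Hochberg over 2526 rows, threshold 0.05). SE is the size of the log2 fold change divided by the root of F. Rows took RefSeq symbols (GRCh38.p14) as reciprocal best matches by place, at overlap over union of 0.5 with a shared end and 0.75 without, which named 38563 rows. No coordinates were converted. The stretches were bounded by SDHA and HMGCS1, H1-1 and H4C3, H2BC7 and H2BC10, VLDLR and VCP, and ATP5F1D and CHAF1A.

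The members, lists and stretches were chosen with earlier results of these data known. Named genes were the members, list genes in the stretches, the 3 nearest tested protein-coding rows on each side and the 3 most alike rows (prior count 2). Alternatives were other scalings, filters and row sets, DESeq2 1.42.0, the replicate number as a block and leaving out each library. Values of 2 list genes are not reported here. On simulated counts for the 2526 rows, the test recovered 91.7% of 4-fold and 36.8% of 2-fold changes, with 5 false calls. The simulation gave every row the same dispersion, 0.028, so these figures need not hold for rows with more spread between libraries. A count of 0 allows up to 3 reads, which is 12.8 to 28.6 CPM of all rows. Same-numbered libraries did not deviate together (correlation -0.05 over 2526 rows). Python 3.11.15 with pandas 2.3.3 served for tables.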

Additional observations from a re-analysis of the deposited data

How the results depend on the processing

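The contrast chose VLDLR, PLIN2 and HMGCS1, so their direction under other settings is no sign of stability. VLDLR ranged from 2.36 to 3.00 over 12 alternatives, PLIN2 from 1.25 to 1.61 over 13, and HMGCS1 from -2.21 to -1.54 over 12, as log2 fold changes. Leaving out 1 library gave 2.36 to 3.00, 1.42 to 1.61 and -2.21 to -1.54. PLIN2 was at 1.25 among the 580 rows that had 50 or more counts in both libraries of either medium, which VLDLR and HMGCS1 did not reach, and at 1.60 with stretch rows alone, an alternative chosen after seeing the data. With DESeq2, 0 members were lower. The replicate block gave 2.60, 1.48 and -1.92, and 2 higher and 0 lower lipid list rows of the table, against 4 and 1 without it. These list rows were 2 higher with library totals only, 0 lower with RLE factors or no filter, 0 and 0 with DESeq2, 1 higher with at least 50 counts, and 1 to 3 higher and 0 to 1 lower without 1 library. In the stretches the higher count was 0 with DESeq2 and with at least 50 counts, and without 1 library it was 0 to 1 higher and 0 to 1 lower. The lower one there was DAB2, without arginine-free replicate 1. The 0 higher with at least 50 counts follows from that filter, since SIRT6 did not reach it. The median of the list rows in the stretches depends on which rows enter. It was 0.15 with DESeq2 and 0.085 with no filter, where rows too low for the main filter are included. With at least 50 counts it was -0.54, which is the value of DAB2 alone. Without 1 library it was -0.44 to 0.21. Rows of the table were 162 higher and 147 lower with DESeq2, 138 and 146 with at least 50 counts, and 270 to 418 and 243 to 389 without 1 library. Fewer rows were tested at 50 counts by construction, and the cause was otherwise not tested. Of 398 values for 33 other named rows, 355 kept their direction and side of the threshold, 18 dropped below it and 4 newly passed. The other 21 changed direction, and none of these passed the threshold before or after. OXCT1 was at 0.014 with RLE factors, 0.11 with DESeq2, 0.085 with no filter, 0.028 with the replicate block and 0.10 with stretch rows alone. RIMOC1 was at 0.020 with DESeq2, 0.059 with no filter and 0.082 with stretch rows alone, where PIP5K1C was at 3.15e-05. Without 1 library the ranges were -0.81 to 0.089 for DAB2, -0.34 to 0.70 for OXCT1, -0.11 to 0.52 for PLAA, -1.19 to 0.43 for PIP5K1C, -0.35 to 0.25 for RIMOC1, -0.56 to 0.10 for PAIP1, -1.09 to 0.21 for DMRT2, -0.83 to 0.23 for PUM3 and -0.69 to 0.77 for SLC1A1. Depth limits VLDLR in control medium and HMGCS1 in arginine-free medium most, at 4 to 10 reads a library.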
